A study of Mus musculus with 6 samples.

Results

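The genes described are 36 members of the unfolded protein response and of protein folding in the endoplasmic reticulum (ER), taken by symbol from the 56748 gene identifiers measured. They comprise the stress sensors and their transcription factors, ER chaperones, disulfide isomerases, J proteins, cofactors of the chaperone BiP, prolyl isomerases and genes of ER-associated degradation. RNA was sequenced from 4T1 cells, a mouse mammary carcinoma line labelled wild type. The 3 treated samples received 125 µg/mL of Au/MoS2/Bi2S3, a heterojunction of gold, molybdenum disulfide and bismuth sulfide, overnight, then 8 min of near-infrared (NIR) light and a further 24 h of culture. The 3 control samples are labelled only as the control group, and both groups were collected at 48 h. No sample analysed here had particles alone or light alone, so the agents cannot be told apart. The study's design text speaks of pooling RNA of 3 individuals, and nothing says whether the samples of a group were separate cultures. The p-values therefore reflect how far these samples varied, and that variation may be technical.

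The ER folds and oxidises proteins bound for secretion and for membranes. When unfolded proteins accumulate there, BiP leaves the sensors PERK, IRE1 and ATF6; PERK lowers translation, IRE1 splices Xbp1 mRNA, and ATF6 is cleaved in the Golgi to a transcription factor. Both XBP1 and ATF6 raise transcription of chaperones and degradation genes, many of them through ER stress response elements (ERSE) in their promoters.

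In treated cells, RNA of nearly every abundant ER chaperone and folding enzyme was lower on the deposited scale, and RNA of the sensors mostly was not called. Of the 36 genes, 35 passed the filter (1 FPKM or more in at least 3 libraries), and Derl3 did not. Calls were made by limma at an adjusted p below 0.05: 23 members fell, 3 rose and 9 were not called. The background is high, since 56.1% of the 11118 genes tested were called, 28.3% lower and 27.9% higher. With every library set to the same total (TPM) these calls split very differently, at 734 genes lower and 7088 higher in place of 3141 and 3099. Of the members, 15 were then lower and 11 higher, with quantile normalization 17 and 5, and with cyclic loess normalization 16 and 3. Over all genes tested, quantile normalization gave 2725 lower and 3026 higher, and cyclic loess normalization 2601 and 2647. The median log2 fold change, on the log2(FPKM + 1) scale that is used throughout, was -1.25 over the 35 members and -0.01 over all genes tested. The members' median was -0.29 with equal totals, -0.47 with quantile and -0.41 with cyclic loess normalization, where that of all genes was 0.92, 0.03 and near 0. Of the members, 21 fell by at least 1 on the log2 scale, where 13.5% of all genes tested did so, and 6 by at least 2, where 2.13% did. The treated samples lay below every control for 25 members and above every control for 3, against 34.1% and 33.6% of all genes tested.

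**Figure D1:**
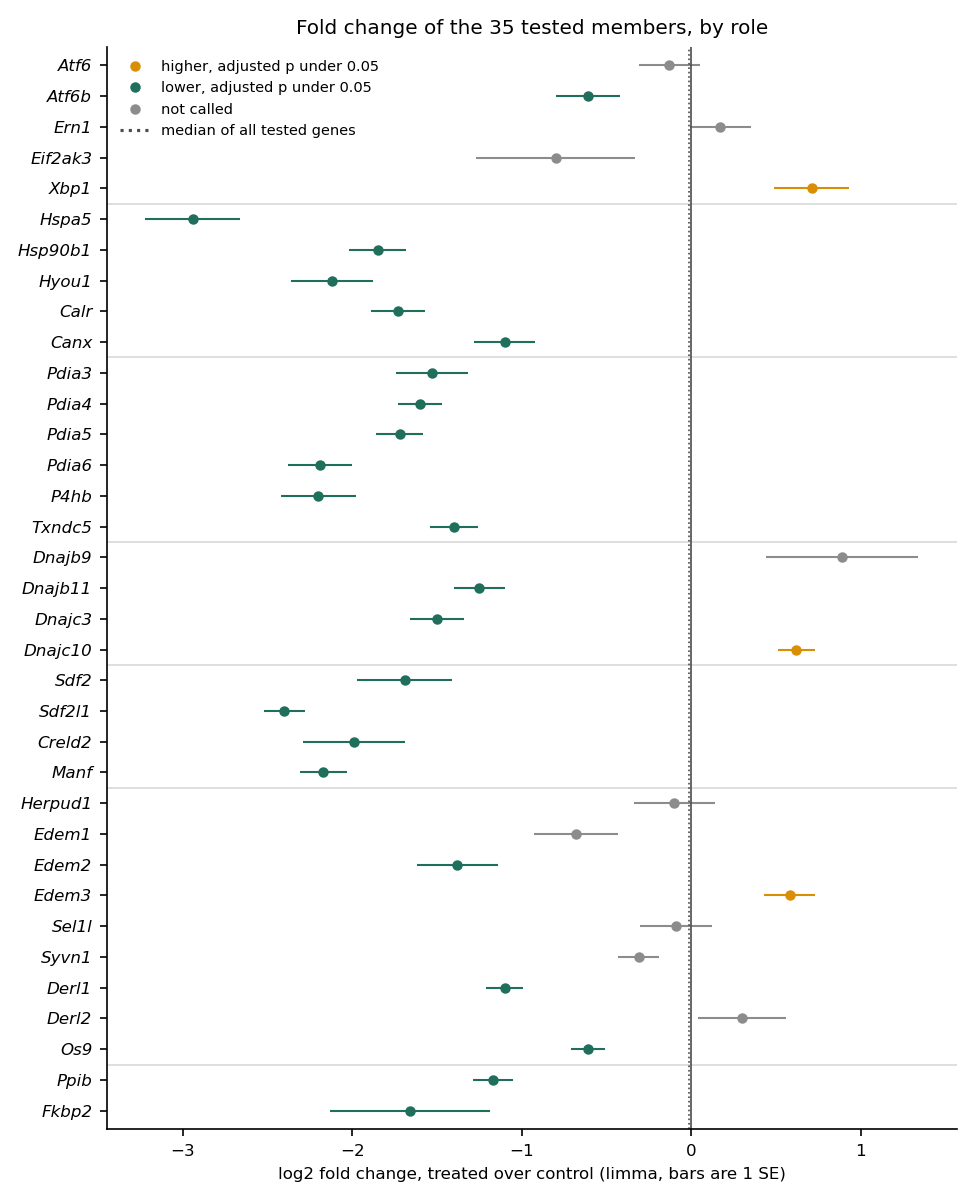
Log2 fold change (treated over control) of the 35 tested members with bars of 1 SE, grouped by role (grey rules) and coloured by call; the dotted line is the median of all tested genes at -0.01. Chaperones, disulfide isomerases and BiP cofactors lie between -2.94 and -1.10, whereas the called Xbp1, Dnajc10 and Edem3 lie above 0.

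Several features of the libraries bear on these values. The recovered reads at genes were 33.2 to 33.8 M (1e6) in treated and 32.6 to 38.1 M in control libraries. Genes above 0 FPKM numbered 21821 to 22088 in treated and 15829 to 18988 in control libraries. Total FPKM was 235757 to 241953 in treated and 450409 to 532583 in control libraries, so the deposited values had not been set to equal totals. The median log2 fold change of all genes tested was -0.01, so a gene reads as lower or higher relative to the typical gene. Fewer cells of a kind and less RNA per cell cannot be told apart in such bulk samples. Of 8 epithelial markers, Krt8, Krt18, Krt19 and Epcam reached 1 FPKM in at least 1 library and Cdh1, Krt7, Cldn3 and Cldn7 did not; their summed level was 741 to 777 FPKM in treated and 1540 to 2260 in control libraries. Among markers of other cells, only Cd68 of 8 leukocyte genes reached 1 FPKM, with Ptprc, Adgre1 and C1qa at or near 0 (sums of 242 to 260 FPKM in treated and 77.0 to 444 in control libraries). Of 6 fibroblast genes, Col1a1, Pdgfra and Pdgfrb reached 1 FPKM in at least 1 library, while Col1a2, Dcn and Lum stayed near 0. Fibroblast sums, nearly all Col1a1, were 30.6 to 33.0 in treated and 114 to 757 FPKM in control libraries. Pdgfra averaged 1.21 FPKM in treated and 1.16 FPKM in control samples. Of 5 plasma or secretory cell markers only Sdc1 reached 1 FPKM, with sums of 42.1 to 42.9 FPKM in treated and 89.0 to 167 in control libraries, and the 4 endothelial markers summed to 1.18 to 1.75 FPKM in treated and 0.744 to 1.16 FPKM in control libraries. The part of these differences in the results was not tested.

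All 5 ER chaperones fell. Each is in the most abundant 10% of tested genes, where 67.2% of all genes were lower. Hspa5 (chromosome 2, 34771970 to 34777547, plus strand, GRCm38 in GENCODE M21, as for all gene positions here) encodes BiP, the HSP70 of the ER, and had the largest change among the members. It stood at 335, 353 and 357 FPKM in treated 1, 2 and 3, against 2667, 1858 and 3871 FPKM in control 1, 2 and 3. Every treated sample lay far below the lowest control, and the controls themselves spanned a wide range. Mean Hspa5 was 8.04-fold lower (log2 fold change -2.94 ± 0.28 SE, limma adjusted p = 0.000556). Hsp90b1, the HSP90 of the ER, averaged 138 ± 9.63 FPKM in treated and 504 ± 84.3 FPKM in control samples (SD, n = 3 each). Hyou1, a nucleotide exchange factor for BiP, averaged 41.9 ± 1.26 FPKM in treated and 193 ± 66.2 FPKM in control samples. These are falls of 3.65-fold and 4.60-fold in the mean. About 10.3% of the Hsp90b1 exon length overlaps a pseudogene on the opposite strand. The sources used here do not give whether the counting used strand.

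The lectin chaperones of the calnexin cycle, which hold glycoproteins while they fold, are Calr and Canx. Calr, the soluble one, stood at 286, 307 and 303 FPKM in treated 1, 2 and 3, against 1014, 1137 and 850 FPKM in control 1, 2 and 3. Canx, the membrane-bound calnexin, stood at 179, 196 and 197 FPKM in treated 1, 2 and 3, against 417, 331 and 498 FPKM in control 1, 2 and 3. Neither gene overlapped between groups, and their log2 fold changes were -1.73 ± 0.16 and -1.10 ± 0.18 SE (limma adjusted p = 0.000529 and 0.0034). Both calls depended on the scaling. Calr was not called with cyclic loess normalization (log2 fold change -0.29, limma adjusted p = 0.223). Canx was not called under any of the other 3 scalings, and its log2 fold change was 0.14 with cyclic loess (limma adjusted p = 0.488). The ratio of Calr to Canx within a library, which no library scaling factor can alter, was 1.60, 1.57 and 1.53 in treated samples and 2.43, 3.43 and 1.70 in control samples. It was lower in every treated sample, at an exact two-sided permutation p of 0.1, the smallest that 3 against 3 samples allow.

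Promoter sequence shows one feature that many of these chaperone genes share. RefSeq windows on GRCm38.p6, from 250 bases before to 50 after the annotated start, were found for 32 of the 36 members, and not for Atf6, Hyou1, Manf and Derl1. The full ERSE, which is CCAAT, 9 bases of any kind and CCACG on either strand, occurred in 9 of the 32, and in 0.119% of all 32851 windows. The first is a count of genes and the second a share of windows. The members were picked as genes of the response that acts partly through this element, so no result is drawn from the difference. The 9 were Hspa5, Hsp90b1, Calr, Canx, Pdia6, Dnajc3, Creld2, Syvn1 and Derl3. The stretches below show the element in the 5 members that carry it and fell the most, 5′ to 3′ on the gene's strand, with the fixed letters of the ERSE in capitals. Hsp90b1, which has 2 copies, is shown with the copy nearer its start.
Hspa5 (chr2:34771890-34772089, plus strand): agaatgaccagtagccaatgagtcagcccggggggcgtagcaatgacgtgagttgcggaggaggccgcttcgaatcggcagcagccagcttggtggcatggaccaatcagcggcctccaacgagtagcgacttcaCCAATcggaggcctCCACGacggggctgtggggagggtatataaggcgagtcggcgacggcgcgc
Pdia6 (chr12:17266471-17266529, plus strand): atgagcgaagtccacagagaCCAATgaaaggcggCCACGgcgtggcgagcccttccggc
Creld2 (chr15:88819500-88819558, plus strand): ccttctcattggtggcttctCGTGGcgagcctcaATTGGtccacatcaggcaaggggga
Hsp90b1 (chr10:86705513-86705571, minus strand): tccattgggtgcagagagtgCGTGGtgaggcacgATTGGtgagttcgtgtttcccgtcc
Calr (chr8:84847055-84847113, minus strand): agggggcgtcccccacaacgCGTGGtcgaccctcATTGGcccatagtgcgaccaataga

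In Creld2, Hsp90b1 and Calr the element reads in the opposite orientation to the gene, so the capitals show its reverse complement. Positions in promoters are counted from the RefSeq start. For some genes, Hspa5 among them, that start lies inside the GENCODE gene position. On that count the first base of the element stood at -65 in Hspa5, -98 in Pdia6, -126 in Creld2, -107 in Hsp90b1 and -162 in Calr. Of the 8 ERSE members that were tested, 7 fell and Syvn1 was not called, with a median log2 fold change of -1.79. Of these 8, 6 are in the most abundant 10% of tested genes, where 67.2% of all genes were lower. Of the 23 members with a window and no full ERSE, 13 fell and 3 rose, with a median of -0.80. Of the 28 other genes with a full ERSE, 6 were tested, of which 1 fell and 1 rose. Of the 7946 tested other genes with a window and no full ERSE, 2110 fell and 2396 rose, with a median of 0.04. The shorter ERSE-II, which is ATTGG, any 1 base and CCACG, was found in Herpud1 and Dnajb11 (0.0365% of all windows), and its letters do not contain those of the full ERSE. Herpud1, which is not called, carries it at -52:
Herpud1 (chr8:94386357-94386407, plus strand): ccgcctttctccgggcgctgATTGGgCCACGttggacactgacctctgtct
The motif TGACGTGG, known as UPRE, was found in 1 member, Txndc5 (0.676% of all windows). TGATGNAAT, a core of the element bound by ATF4 and C/EBP proteins, was found in 0 of the 32 (0.965% of all windows). These matches describe letters in a window and not binding.

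All 6 protein disulfide isomerases, which form and rearrange disulfide bonds in the ER, fell as well. Except for Pdia5, they too are in the most abundant 10% of tested genes, where 67.2% of all genes were lower. P4hb, the founding enzyme of the family, was the most abundant member in all libraries of the treated group and of the controls. It stood at 661, 680 and 709 FPKM in treated 1, 2 and 3, against 3089.9, 2524 and 4002 FPKM in control 1, 2 and 3. The groups lay far apart, and the mean was 4.69-fold lower (log2 fold change -2.20 ± 0.22 SE, limma adjusted p = 0.000586). Pdia6 averaged 126 ± 2.73 FPKM in treated and 589 ± 136 FPKM in control samples, which is 4.66-fold lower. Pdia3, which works with the lectin chaperones on glycoproteins, was 2.95-fold lower, Pdia4 3.05-fold and Txndc5 2.69-fold. Pdia5 was the scarcest of the family and fell in the same range, at 6.03, 5.65 and 5.47 FPKM in treated 1, 2 and 3, against 24.2, 17.5 and 22.0 FPKM in control 1, 2 and 3. With quantile and with cyclic loess normalization P4hb and Pdia3 were no longer called, although all 6 still lay below the median of all genes.

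The BiP cofactors and secreted folding factors fell, 4 of 4. These 4 are also in the most abundant 10% of tested genes, where 67.2% of all genes were lower. Sdf2l1, a luminal partner of J proteins, had the largest fall of the group (chromosome 16, 17130138 to 17132383, minus strand). It stood at 40.9, 44.5 and 37.2 FPKM in treated 1, 2 and 3, against 208, 233 and 220 FPKM in control 1, 2 and 3. Its paralogue Sdf2 stood at 44.5, 48.9 and 43.5 FPKM in treated 1, 2 and 3, against 132, 109.6 and 229 FPKM in control 1, 2 and 3. Both genes separated the groups fully, and the control values of Sdf2 spread far more than those of Sdf2l1. The ratio of Sdf2l1 to Sdf2 averaged 0.895 ± 0.0355 in treated and 1.55 ± 0.58 in control samples (SD, n = 3 each; exact two-sided permutation p = 0.1, the smallest possible). Sdf2 shares 16.0% of its exon length with Supt6 on the other strand. Manf, a secreted neurotrophic factor that binds BiP, was 4.61-fold lower, and Creld2, a secreted ER stress protein, 4.31-fold (log2 fold changes -2.17 ± 0.14 and -1.99 ± 0.30 SE).

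The J proteins, which deliver clients to BiP and start its ATP cycle, split. Dnajc3 stood at 19.3, 20.4 and 21.1 FPKM in treated 1, 2 and 3, against 61.5, 47.3 and 70.1 FPKM in control 1, 2 and 3, and fell (log2 fold change -1.50 ± 0.16 SE, limma adjusted p = 0.000817). Dnajb11 fell to 21.5 ± 1.73 FPKM in treated samples, against 52.9 ± 7.95 FPKM in control samples, a call lost with equal library totals (limma adjusted p = 0.0743). Dnajc10, which combines a J domain with thioredoxin domains and reduces disulfides of proteins sent for degradation, rose. It stood at 52.1, 51.9 and 57.4 FPKM in treated 1, 2 and 3, against 36.9, 32.2 and 34.6 FPKM in control 1, 2 and 3. This is a log2 fold change of 0.62 ± 0.11 SE at a limma adjusted p of 0.00444. Both groups were tight and did not overlap. Dnajb9, a J protein that holds IRE1 in check and is a well-known target of spliced XBP1, was not called (log2 fold change 0.89 ± 0.45 SE, limma adjusted p = 0.135). It stood at 19.5, 20.96 and 21.8 FPKM in treated 1, 2 and 3, against 12.1, 20.1 and 4.79 FPKM in control 1, 2 and 3. Control 2 was close to the treated samples and control 3 far below them. Dnajb9 was called higher without control 2 (limma adjusted p = 0.0193), with equal library totals (0.0162) and with quantile normalization (0.049).

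Of the sensors and their transcription factors, Xbp1 rose, Atf6b fell and the others were not called. Xbp1, the transcription factor made active by IRE1, stood at 37.3, 36.2 and 39.0 FPKM in treated 1, 2 and 3, against 20.7, 17.3 and 31.5 FPKM in control 1, 2 and 3. The groups did not overlap, with control 3 nearest to the treated samples, and the log2 fold change was 0.71 with an SE of 0.22 (limma adjusted p = 0.0323). A value per gene does not tell spliced from unspliced Xbp1 RNA. The call of Xbp1 was lost without control 1 or 2 or any treated sample, with limma adjusted p between 0.0509 and 0.103. It was also lost with no filter (limma adjusted p = 0.0696). Ern1, which encodes IRE1, stood at 16.1, 15.7 and 15.9 FPKM in treated 1, 2 and 3, against 13.6, 11.0 and 18.3 FPKM in control 1, 2 and 3. Atf6 stood at 17.7, 17.0 and 17.8 FPKM in treated 1, 2 and 3, against 18.9, 24.7 and 15.1 FPKM in control 1, 2 and 3. For both of these sensors the treated values lay inside the range of the controls, with log2 fold changes of 0.17 ± 0.18 and -0.13 ± 0.18 SE (limma adjusted p = 0.46 and 0.574). Ern1 was called higher without control 3 (log2 fold change 0.35, limma adjusted p = 0.029), with equal library totals (1.16, 0.000645) and with quantile normalization (0.42, 0.0495). Atf6 was called higher with equal library totals (log2 fold change 0.85, limma adjusted p = 0.017).

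Atf6b, the paralogue of Atf6, stood at 29.1, 27.4 and 25.4 FPKM in treated 1, 2 and 3, against 37.2, 36.2 and 55.5 FPKM in control 1, 2 and 3 (log2 fold change -0.61 ± 0.19 SE, limma adjusted p = 0.0325). Its call was lost without control 1 or any treated sample, with limma adjusted p between 0.0524 and 0.113. A replicate block and no filter also removed it (limma adjusted p = 0.0703 and 0.0654). It was lost under the other 3 scalings too, with a log2 fold change of 0.37 at equal library totals and -0.04 with quantile or cyclic loess normalization (limma adjusted p = 0.0539, 0.843 and 0.851). The ratio of Atf6 to Atf6b overlapped between groups, at 0.643 ± 0.049 in treated and 0.488 ± 0.206 in control samples (SD, n = 3 each; exact two-sided permutation p = 0.3). Eif2ak3, which encodes PERK, stood at 6.00, 5.88 and 6.11 FPKM in treated 1, 2 and 3, against 10.3, 5.32 and 24.3 FPKM in control 1, 2 and 3. Control 2 lay below the treated samples and control 3 far above them, so the mean was 2.22-fold lower without a call (log2 fold change -0.80 ± 0.47 SE, limma adjusted p = 0.195). Eif2ak3 was called lower without control 2 (log2 fold change -1.27, limma adjusted p = 0.0206).

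**Figure D2:**
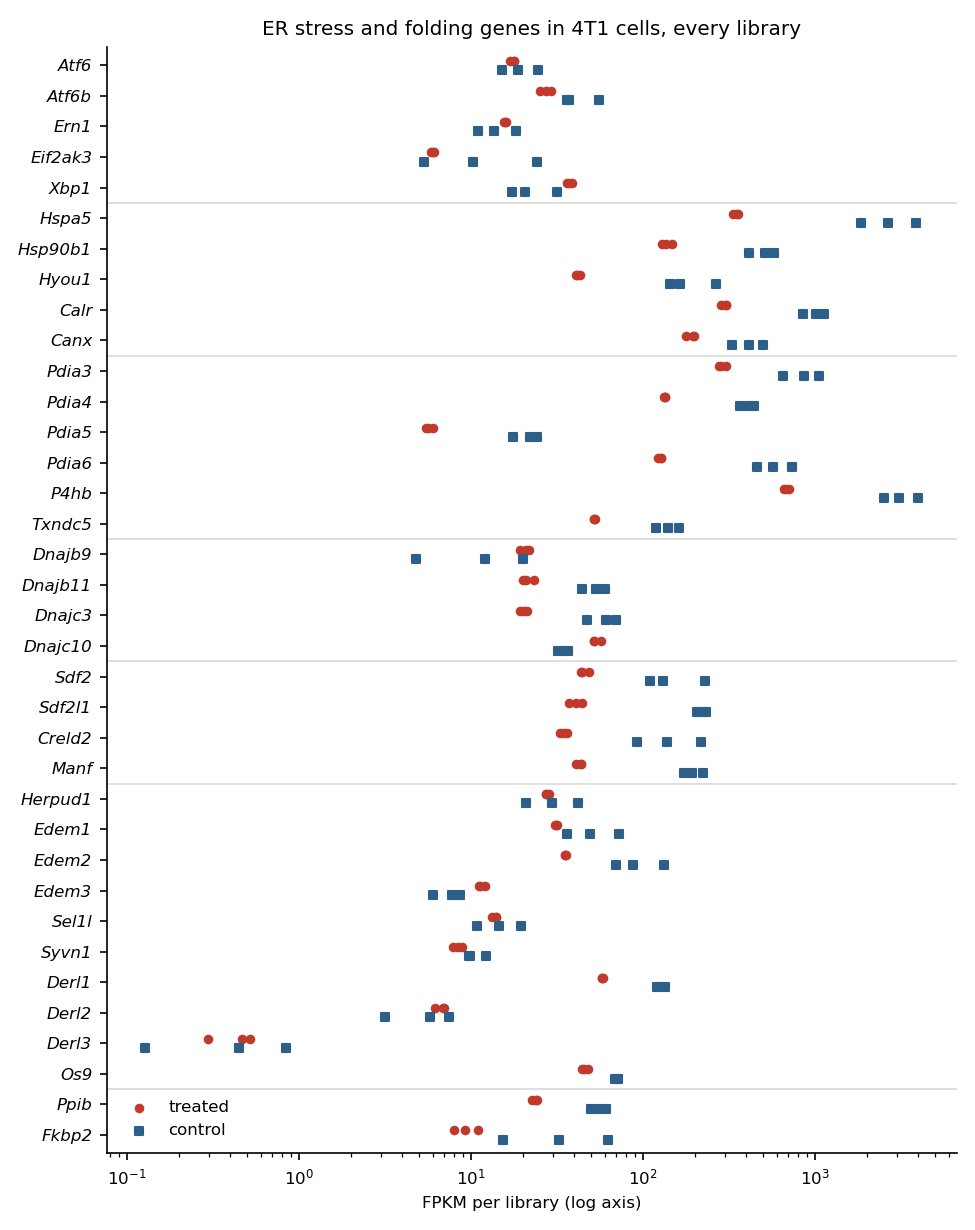
FPKM of the 36 members in every library on a log axis, with treated samples as red circles above control samples as blue squares in each row and grey rules between roles. Hspa5 and P4hb are at 335 to 709 FPKM in treated samples and at 1858 to 4002 FPKM in control samples, while the groups overlap for Atf6, Ern1 and Eif2ak3.

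Genes of ER-associated degradation, which recognise misfolded proteins and pass them to the proteasome, were mixed. Of 9 tested, 3 fell, 1 rose and 5 were not called, with a median log2 fold change of -0.31. Over all genes tested, 28.3% were lower and 27.9% higher, so the falls here were near the general share. The EDEM proteins, which trim mannose from glycoproteins that fail to fold, went different ways. Edem2 stood at 35.4, 35.7 and 35.2 FPKM in treated 1, 2 and 3, against 87.4, 70.3 and 134 FPKM in control 1, 2 and 3. It fell (log2 fold change -1.38 ± 0.24 SE, limma adjusted p = 0.0039), though not with equal library totals (-0.40, limma adjusted p = 0.0951). Edem3 stood at 12.1, 11.4 and 11.2 FPKM in treated 1, 2 and 3, against 7.82, 8.69 and 6.00 FPKM in control 1, 2 and 3. It rose (log2 fold change 0.58 ± 0.15 SE, limma adjusted p = 0.0161), a call lost without treated 1, 2 or 3 (limma adjusted p between 0.0559 and 0.0685). Edem1 was below every control in all 3 treated samples without a call (log2 fold change -0.68 ± 0.25 SE, limma adjusted p = 0.0576), and was called lower without control 2 or control 3 (limma adjusted p = 0.00746 and 0.0439).

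The derlins, membrane proteins of the export channel, also differed. Derl1 stood at 58.0, 59.0 and 57.9 FPKM in treated 1, 2 and 3, against 124, 135 and 121 FPKM in control 1, 2 and 3, and fell (log2 fold change -1.10 ± 0.11 SE, limma adjusted p = 0.000591). Derl1 was not called under any of the other 3 scalings, where its log2 fold change lay between -0.23 and -0.11 (limma adjusted p between 0.18 and 0.481). Derl2 averaged 6.67 ± 0.421 FPKM in treated and 5.50 ± 2.17 FPKM in control samples and was not called (limma adjusted p = 0.361), but was called higher with equal library totals (0.014). Derl3 rested on 26 to 46 reads in treated and 6 to 53 reads in control libraries and was not tested. Os9, a lectin of the degradation complex, averaged 46.2 ± 1.94 FPKM in treated and 71.0 ± 1.69 FPKM in control samples. It fell with the deposited scaling (log2 fold change -0.61 ± 0.10 SE, limma adjusted p = 0.00354), but with every library set to the same total its log2 fold change was 0.38 and it was called higher, and with quantile or cyclic loess normalization it was not called. Sel1l and Syvn1, the scaffold and the ubiquitin ligase of the same complex, and Herpud1, an ER stress protein that binds it, were not called with the deposited scaling. Their log2 fold changes were -0.09 ± 0.21, -0.31 ± 0.12 and -0.10 ± 0.24 SE (limma adjusted p = 0.737, 0.077 and 0.749). With equal library totals all 3 were called higher, at log2 fold changes of 0.89, 0.64 and 0.89 (limma adjusted p = 0.00389, 0.0129 and 0.0343). Syvn1 was called lower without control 3 (limma adjusted p = 0.0353).

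Both prolyl isomerases, which speed the turning of proline bonds, fell, beside 28.3% of all genes tested. Ppib stood at 24.0, 22.8 and 24.4 FPKM in treated 1, 2 and 3, against 54.1, 60.8 and 49.8 FPKM in control 1, 2 and 3 (log2 fold change -1.17 ± 0.12 SE, limma adjusted p = 0.000616). Ppib shares 825 bases of its exons with Snx22 on the other strand, so its values are uncertain. Fkbp2 stood at 9.29, 11.1 and 8.02 FPKM in treated 1, 2 and 3, against 32.5, 15.4 and 63.2 FPKM in control 1, 2 and 3 (log2 fold change -1.66 ± 0.47 SE, limma adjusted p = 0.0255). The controls of Fkbp2 differed from each other by more than control 2 differed from the treated samples. Its call was lost without control 1 or any treated sample (limma adjusted p between 0.0586 and 0.0848) and with no filter (0.0653). With equal library totals neither gene was called, at log2 fold changes of -0.20 for Ppib and -0.74 for Fkbp2 (limma adjusted p = 0.286 and 0.166).

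Most falls were among abundant members. In these libraries abundant genes as a whole were lower in treated samples, so the members were set beside all genes of similar level. A first split used the control mean, which also enters the fold change. Its upper class therefore leans toward falls, for members and all genes alike. Dnajc10, at 53.8 FPKM in treated and 34.6 FPKM in control samples, was placed in the lower class. With a mean of 50 FPKM or more in controls, 20 of 21 members fell (not Edem1) and their median log2 fold change was -1.60. Of all 1264 tested genes at that level, 73.8% were called lower, with a median of -1.05. With a lower mean, 3 of 14 tested members fell and 3 rose, with a median of -0.09, beside 22.4% lower and 31.3% higher among the 9854 tested genes at that level (median 0.10). A second split used the mean level over treated and control libraries together. In the most abundant 10% of tested genes on that measure, all 17 members fell with the deposited scaling, beside 67.2% of all 1112 genes there. The median of these members was -1.73 against -0.93 for all genes in it, and 16 of the 17 lay below that value. Hspa5 was 2.01 and Sdf2l1 1.47 on the log2 scale below the median of their level, whereas Canx and Derl1 were each 0.17 below it. Os9 alone of the 17 lay above it, by 0.32. The part that level plays in the members' falls was not tested.

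**Figure D3:**
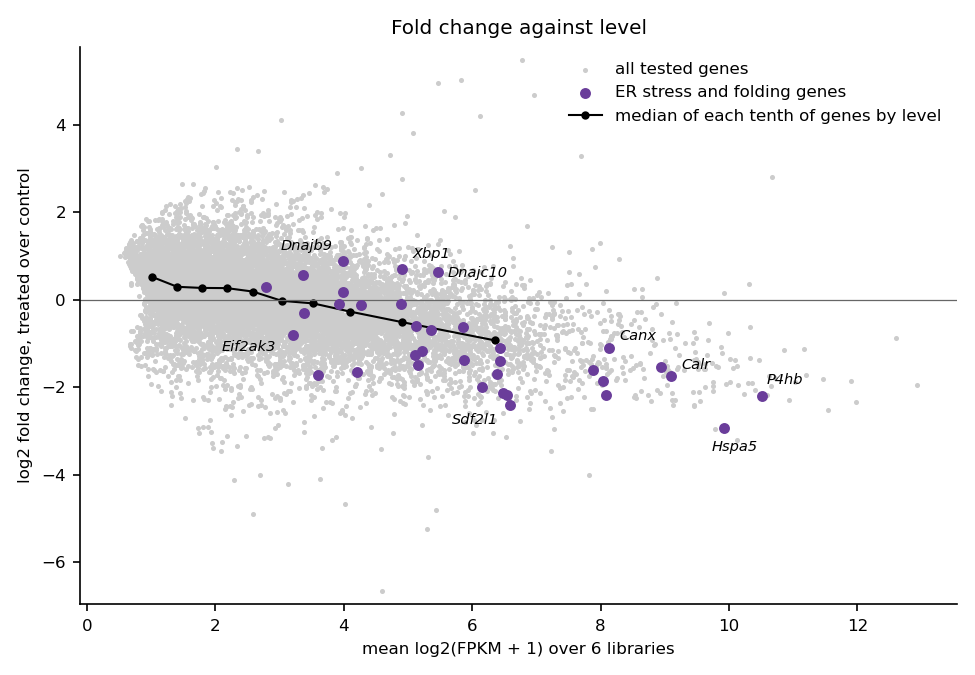
Log2 fold change (treated over control) against mean log2(FPKM + 1) for 11118 tested genes in grey and 35 members in purple; black points join the medians of each 10% of genes by level. The black line descends to -0.93 in the most abundant genes, and Hspa5 at -2.94 lies well beneath it while Xbp1 at 0.71 and Dnajc10 at 0.62 lie above it.

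The members were nearly constant among treated samples and varied among controls. The coefficient of variation had a median of 4.2% in treated and 23.3% in control samples over the 35 tested members, beside 5.95% and 24.5% over all genes tested. Control libraries differed in a patterned way. For 20 of the 36 members control 3 was the highest and control 2 the lowest, an order that 33.7% of all genes tested showed. This set held Hspa5, Hsp90b1, Hyou1, Canx, P4hb, Pdia3, Pdia6 and Xbp1. For 11 members, among them Dnajb9, Herpud1, Calr, Manf, Atf6 and all 3 derlins, the order was the opposite, as for 32.0% of all genes tested. The remaining 5 had another order. Of the tested members Eif2ak3 varied the most among controls, with a coefficient of variation of 74.1%, and Os9 the least, with 2.38%. Without control 1, 2 or 3 the log2 fold change of Hspa5 less the median of all genes was -2.94, -3.22 or -2.64, and that of Dnajb9 was 0.97, 1.30 or 0.42.

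**Figure D4:**
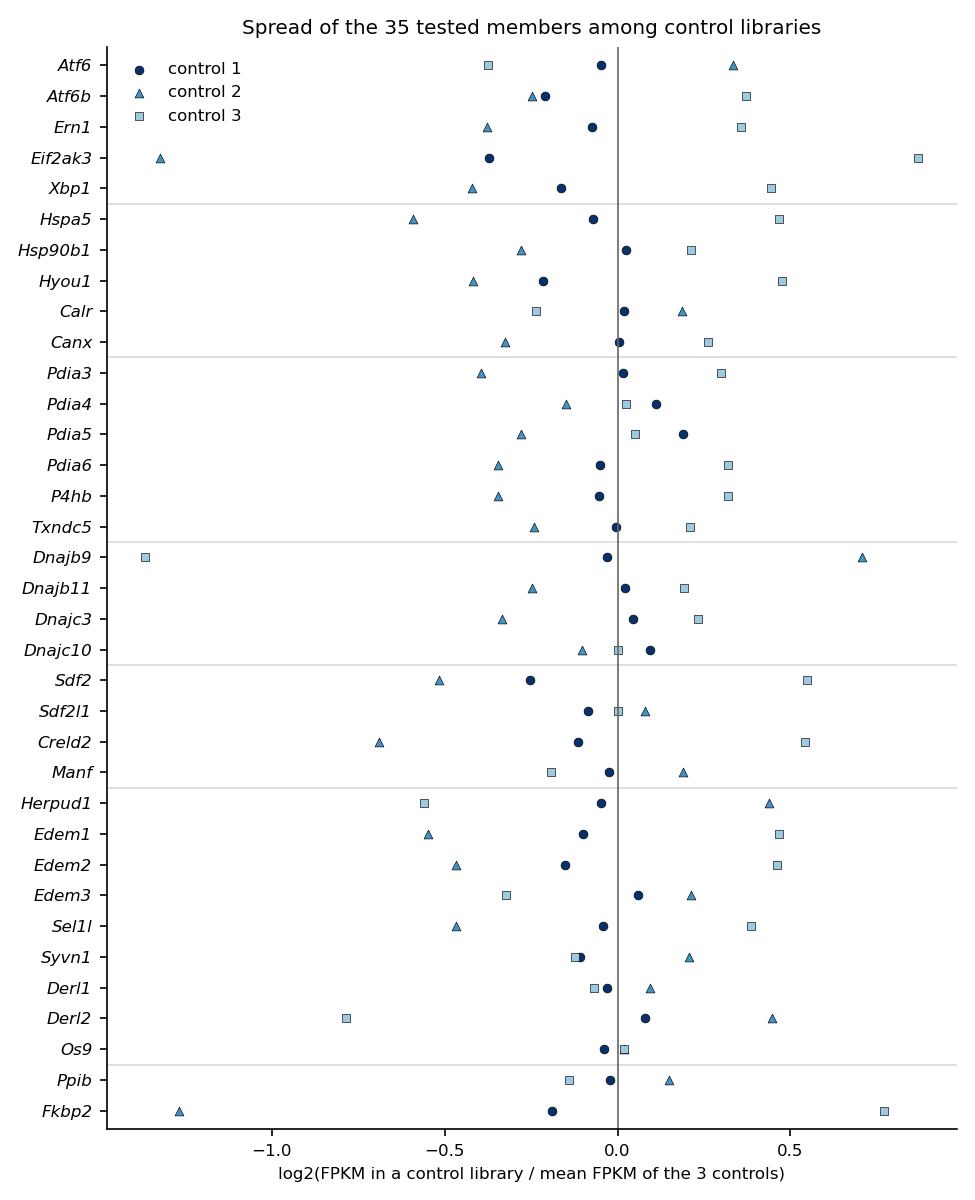
Log2 ratio of each control library to the mean of the 3 controls for the 35 tested members, with 1 symbol per library and grey rules between roles. Control 2 is the lowest and control 3 the highest for most chaperones and isomerases, and Dnajb9, Derl2 and Herpud1 show the reverse.

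How far a member fell depended on how the libraries were scaled. With equal library totals the median of all genes tested stood at a log2 fold change of 0.92 and that of the members at -0.29, a gap of -1.20. The gap was -1.24 with the deposited scaling, -0.50 with quantile normalization and -0.41 with cyclic loess normalization, which takes out a trend with level. Under all 4 scalings 24 of the 35 members lay below the median of all genes, 6 lay above it (Xbp1, Ern1, Dnajb9, Dnajc10, Edem3 and Derl2) and 5 changed side. A call of lower was made under all 4 for 12 members, namely Hspa5, Hsp90b1, Hyou1, Pdia4, Pdia5, Pdia6, Txndc5, Dnajc3, Sdf2, Sdf2l1, Creld2 and Manf. A call of higher was made under all 4 for Xbp1, Dnajc10 and Edem3. Relative to the median of all genes, the log2 fold change of Hspa5 ran between -2.92 and -1.34 and that of P4hb between -2.19 and -0.48, while that of Pdia5 stayed between -1.77 and -1.60.

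**Figure D5:**
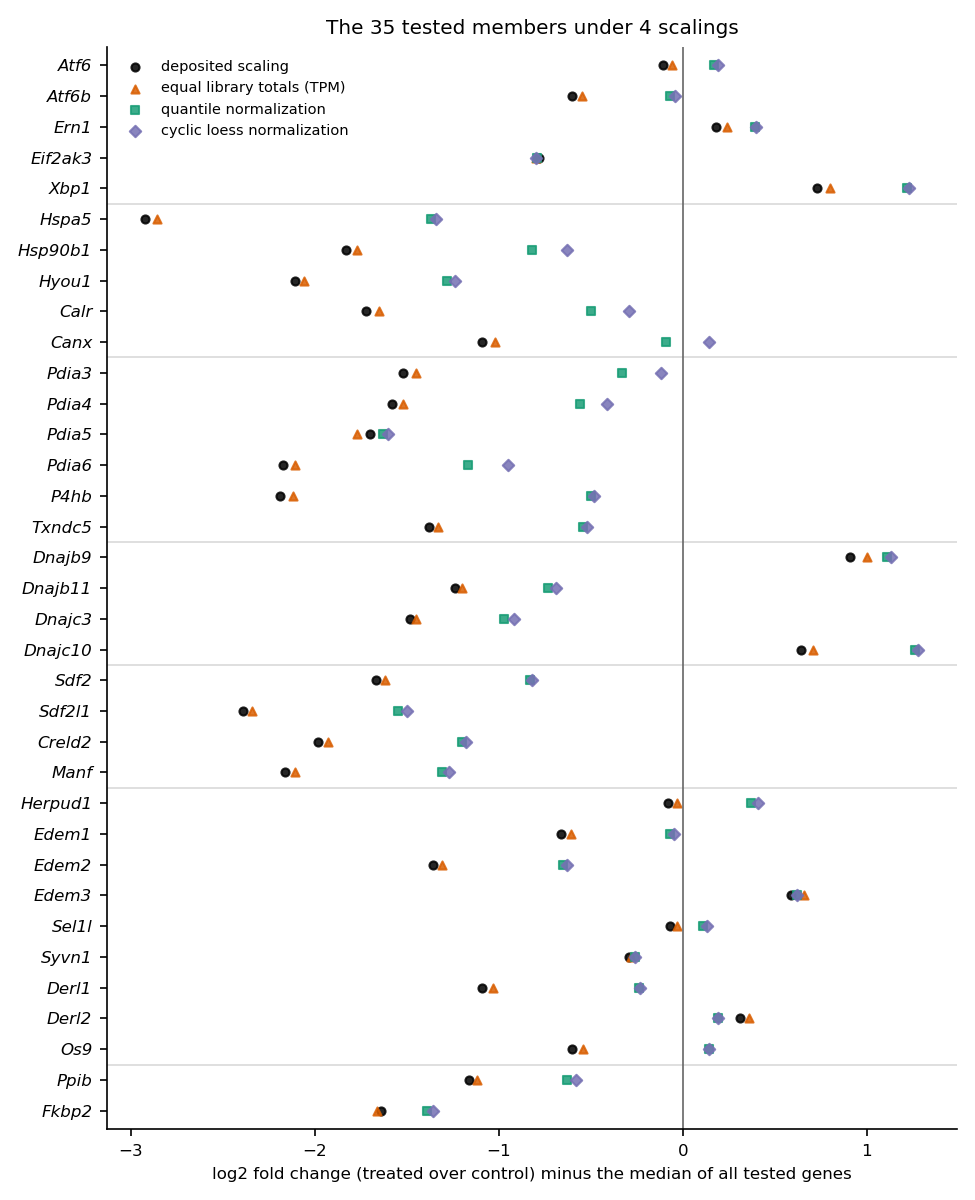
Log2 fold change (treated over control) of the 35 tested members, less the median of all tested genes, under the deposited scaling, equal library totals, quantile normalization and cyclic loess normalization. The first pair of scalings nearly coincide, and the other pair move the abundant Hspa5, P4hb and Calr toward 0 while Xbp1 and Dnajc10 move further above it.

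Other genes of the pathway, which are no members, were read from 6 lists, in which 40 of 88 tested genes fell and 22 rose with the deposited scaling. With equal library totals 10 of them were lower and 46 higher, and 23 were lower with quantile and 22 with cyclic loess normalization. The counts below are those of the deposited scaling, beside 28.3% lower and 27.9% higher over all genes tested. All 4 genes of ER retention fell, the KDEL receptors Kdelr1, Kdelr2 and Kdelr3 and the sorting receptor Rer1, with a median log2 fold change of -1.17. Kdelr3 averaged 17.8 ± 0.168 FPKM in treated and 42.5 ± 4.69 FPKM in control samples (limma adjusted p = 0.000598). With equal library totals 0 of the 4 were called lower, and under quantile or cyclic loess normalization 1 was called lower. Of 22 further folding and disulfide enzymes, 16 fell and 2 rose (median -0.75). Prdx4, a peroxiredoxin of the ER, averaged 28.7 ± 2.87 FPKM in treated and 106 ± 11.9 FPKM in control samples, while Qsox2, a sulfhydryl oxidase, rose 2.84-fold. Of 11 tested genes of glycan trimming and glycoprotein transport, 6 fell and 1 rose (median -0.45). Prkcsh, the beta subunit of glucosidase II, was 2.68-fold lower and Man1a2, a mannosidase, 1.79-fold higher.

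Of 23 further degradation genes, 8 were called lower and 7 higher (median -0.36), shares close to those over all genes tested. Selenos, a selenoprotein of the ER membrane that recruits the p97 ATPase, was 2.70-fold lower, and Erlin2, which guides degradation of the inositol trisphosphate receptor, was 4.37-fold higher, at 6.65 ± 0.511 FPKM in treated and 1.52 ± 0.0551 FPKM in control samples. Of 14 tested genes that process or relay the response, 7 rose and 4 fell (median 0.33). Traf2, an adaptor that binds IRE1, rose 2.46-fold and Tmed10, a cargo receptor, fell 1.85-fold. The call of Tmed10 was lost under the other 3 scalings, with log2 fold changes of 0.12 at equal library totals and -0.18 with quantile or cyclic loess normalization. Mbtps1 and Mbtps2, the Golgi proteases that cut ATF6, rose 1.27-fold and 2.82-fold; both were named after their values were seen, and the call of Mbtps1 was lost without control 1 or any treated sample (limma adjusted p between 0.0724 and 0.115), with a replicate block (0.127) and with sample weights per group (0.0548). Of 14 genes of the PERK arm and the integrated stress response, 5 rose and 2 fell (median 0.16). Those that rose were Sesn2, Ppp1r15b, Chac1, Asns and Eif2s1, and those that fell were Cebpb and Atf4. The other 7, Ddit3, Trib3 and Atf3 among them, were not called. Sesn2, a stress-induced regulator of growth signalling, averaged 13.4 ± 0.655 FPKM in treated and 3.29 ± 0.797 FPKM in control samples, and Cebpb, a transcription factor, was 3.39-fold lower. Cebpb lost its call with equal library totals and with cyclic loess normalization (limma adjusted p = 0.0573 and 0.0502). Atf4, the transcription factor that PERK signalling induces by translation, fell 1.99-fold with the deposited scaling, but its log2 fold change was between 0.01 and 0.03 under the other 3 scalings; it too was named after its values were seen.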

How the data were processed

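The authors deposited 1 FPKM value per gene and sample, per the file headers. Libraries were made from 3 µg of poly-T selected RNA and read in pairs of 150 bp, per the labels' protocols. Not given in the sources used here are the aligner, counter, annotation, strand setting and scaling between libraries. Symbols and exon lengths came from GENCODE M21 (52073 of 56748 identifiers had a symbol). Low FPKM values were whole multiples of 1 read for 92.5% to 93.4% of values under 200 reads (within 0.02 of a read), which gave the reads at genes. These are ends of unmarked PCR fragments, so they bear on counting error only.

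limma 3.58.1 in R 4.3.3 was fitted to log2(FPKM + 1) with a trended prior and group as the only term, on 11118 genes that reached 1 FPKM in 3 or more libraries, with Benjamini-Hochberg adjustment over all of them. Fold changes understate the change of scarce genes, and folds of mean FPKM are also given. Ratios within a library were compared by exact permutation in scipy 1.17.1. Promoter windows are RefSeq's on GRCm38.p6. Alternatives were another pseudocount, filters, scalings, weights, a block and leaving out each library.

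Values in every sample are given for the largest rise, the largest fall and the most abundant gene of each role, and for further members where a result turns on them. Of each pathway list, the called gene with the smallest p in each direction is named. The members, roles and lists were chosen with earlier results of these data known.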

Additional observations from a re-analysis of the deposited data

How the results depend on the processing

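Of the 26 called members, 13 kept their call under all 14 alternatives: Hspa5, Hsp90b1, Hyou1, Pdia4, Pdia5, Pdia6, Txndc5, Dnajc3, Sdf2, Sdf2l1, Creld2, Manf and Dnajc10. Scaling moved the counts most. With equal library totals (TPM), 15 members were lower and 11 higher, in place of 23 and 3, at a median log2 fold change of -0.29, and 734 of all genes were lower and 7088 higher, in place of 3141 and 3099; of the genes in the 6 pathway lists 10 were lower and 46 higher, in place of 40 and 22. With quantile normalization the members' median was -0.47 with 17 lower and 5 higher, and 23 list genes were lower; with cyclic loess these were -0.41, 16 lower, 3 higher and 22. A filter at 5 FPKM left 1385 of all genes higher. TPM turned the log2 fold change positive for Atf6 (0.85), Atf6b (0.37), Eif2ak3 (0.11), Herpud1 (0.89), Edem1 (0.30), Sel1l (0.89), Syvn1 (0.64), Os9 (0.38), Atf4 (0.03) and Tmed10 (0.12). Quantile normalization did so for Atf6 (0.20), Herpud1 (0.40), Sel1l (0.14), Os9 (0.17) and Atf4 (0.01), and cyclic loess for Atf6 (0.19), Canx (0.14), Herpud1 (0.41), Sel1l (0.12), Os9 (0.14) and Atf4 (0.02). The cause was not tested.

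Leaving out 1 library gave 21 to 25 members lower and 1 to 4 higher, a median of -1.37 to -1.15, 2133 to 3875 genes lower and 2262 to 3728 higher, and 31 to 48 list genes lower and 15 to 25 higher. The count of higher members was 1 without treated 1, 2 or 3, when the calls of Xbp1 and Edem3 were lost. Without any treated sample in turn, the further degradation genes had 5 lower and 4 higher in place of 8 and 7, and, without control 1 as well, the genes that process or relay the response had 1 lower in place of 4 and the further folding enzymes 1 higher in place of 2. Without control 3 the PERK arm had 4 lower in place of 2. Log2 fold changes ran from -0.29 to 0.05 for Atf6 and -0.34 to 0.14 for Herpud1, positive without control 2, and from -0.29 to 0.11 for Sel1l, positive without control 3. The log2 difference of ratios within a library ran from -1.02 to -0.46 for Sdf2l1 to Sdf2, 0.12 to 0.76 for Atf6 to Atf6b and -0.88 to -0.38 for Calr to Canx.

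Same-numbered samples shared no deviation from their group means, with correlations of -0.0538, -0.111 and -0.14. These values cannot tell whether the samples were paired in the experiment. With the replicate block 22 members were lower and 3 higher, 2669 genes were lower and 2618 higher, and Atf6b alone among members lost its call (limma adjusted p = 0.0703), as did Mbtps1 among the named list genes (0.127). Sample weights per group, added after the data were seen, gave 24 members lower and 3 higher. Derl3, on few reads, is limited by depth.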

Other observations

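Counted as a share of each library, which no library scaling factor can alter, the 36 genes held 1.22%, 1.23% and 1.29% of the total FPKM in treated 1, 2 and 3, against 2.51%, 2.09% and 2.66% in control 1, 2 and 3. Hspa5 and P4hb together made up 34.6% to 35.1% of the members' sum in treated samples and 46.6% to 55.5% in control samples. Hspa5 ranked 85 to 92 by FPKM among all genes of a treated library and 16 to 36 of a control library. P4hb ranked 23 to 31 in treated and 14 to 19 in control libraries. Xbp1 ranked 976 to 1104 in treated and 1944 to 2869 in control libraries.

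The 6 tested genes outside the members that carry a full ERSE were Adcy3, Alg12, Hnrnpa3, Pan2, Tdrd9 and Zfp57. Adcy3, an adenylyl cyclase, rose (log2 fold change 0.74, limma adjusted p = 0.00441) and Zfp57, a zinc finger gene, fell (-0.92, limma adjusted p = 0.000794). Alg12, a mannosyltransferase of the ER, was not called (0.11, limma adjusted p = 0.647).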
